A study of Homo sapiens with 6 samples.

Results

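The mRNAs for the protein subunits of the large mitochondrial ribosomal subunit were examined in the non-polysomal fraction of HCT116 cells, an established human colorectal carcinoma line, with and without LARP1. Members were the protein-coding genes whose symbol starts with MRPL and a digit, which gave 49 of the 14574 genes in the table, and all 49 entered the test. There were 2 RNA-seq libraries of LARP1 KO cells, 2 transcription start site (TSS) libraries of parental cells and 2 RNA-seq libraries of the same parental RNA. All cells, parental ones included, had been kept in TAK228, which blocks the kinase mTOR, at a concentration of 250 nM over 48 h, with the drug renewed after 24 h. Neither the edited region of LARP1 nor whether the KO cells were 1 clone is given in the labels. They speak of parental and KO pools without naming what was pooled, and separate cultures are not named for the replicates. The p-values therefore rest on the spread between these libraries, which may be technical. In the main test that spread is the one fitted over all tested genes at a gene's mean level, not the gene's own.

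Mitochondria make a small set of inner-membrane respiratory proteins on ribosomes of their own. The RNA of these ribosomes is encoded in mitochondrial DNA, whereas every protein subunit is encoded in the nucleus, translated in the cytosol and imported. The large subunit holds the peptidyl transferase centre, a tunnel through which the new chain leaves, stalks that receive the translation factors, and a central protuberance facing the small subunit. LARP1 binds mRNAs at the cap together with a terminal oligopyrimidine (TOP) start, a C followed by a run of pyrimidines that is typical of cytosolic ribosomal proteins and several translation factors. The comparison asked which of the mitochondrial subunit mRNAs differed in the non-polysomal fraction between LARP1 KO and parental cells under mTOR inhibition.

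The annotated starts of 8 members are shown as examples of each kind of start sequence in the family: with a TOP-like run at the first base (MRPL45, MRPL53 and MRPL44), with a displaced run (MRPL3 and MRPL30) and with none (MRPL37, MRPL42 and MRPL46). Apart from MRPL44 they come from the members with the smallest p or the highest fold change, so they do not represent the family. Each window holds 10 bases before the annotated start and the first 20 bases from it, read 5′ to 3′ on the strand of the gene from the RefSeq promoter table (GRCh38.p14). Capitals mark a C followed by at least 4 pyrimidines (C or T).
MRPL45: ttcccggcggCCTTTgcgggaacaagatgg
MRPL53: tgcacgagttCTTCCggggcggaggtcacc
MRPL44: ccatcgttttCTCTCgtgcaatggcgtccg
MRPL3: tCTTTCCgtcgcagagagcatcggccggcg
MRPL30: gtagcacttggtagttCTTCCTCTgctctg
MRPL37: ggcgcccggtctcattcgttcccagcaggc
MRPL42: tgggaccaggattgaaacaagatggcgggt
MRPL46: tgcattgtgggagaacgaaagatggcggcg
The windows lie at chr17:38297158-38297187 on the plus strand for MRPL45, chr2:74472661-74472690 on the minus strand for MRPL53 and chr2:223957453-223957482 on the plus strand for MRPL44. Those of MRPL3 (chr3:131502952-131502981, minus strand) and MRPL30 (chr2:99181174-99181203, plus strand) have the run at positions -9 and 6, counted with the annotated first base as 0. The others are chr1:54200157-54200186 on the plus strand (MRPL37), chr12:93467504-93467533 on the plus strand (MRPL42) and chr15:88467369-88467398 on the minus strand (MRPL46).

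The 6 libraries held 22039174 and 21388111 reads in the KO cells, 26955481 and 24446561 in the TSS libraries and 19038642 and 25323973 in the parental RNA-seq libraries. A member had between 33 and 1210 reads in a library. Values below are normalised read counts, gene reads divided by 1 size factor per library by the authors. They are levels in the non-polysomal fraction, so retention there and abundance in the whole cell cannot be told apart, nor can fewer cells and less RNA per cell. LARP1 read 356 and 284 in the KO libraries and 633 and 770.3 in the parental ones (a log2 difference of -1.13 with an SE of 0.18, limma adjusted p = 2.86e-09), so its mRNA was lower but present. Of 7 epithelial markers 6 were among the genes analysed, with summed values of 12703 and 10943 in KO and 14421 and 13766 in parental libraries. EPCAM (-0.93, limma adjusted p = 3.62e-06), CDH1 (-0.88, 0.00383) and KRT19 (-0.85, 1.03e-07) were called lower before and after centring, KRT18 was not called in either, and KRT8 and CLDN4 were called higher after centring. Of 7 markers of other cell types 2 were among the genes analysed. ACTA2 read 16.8 and 9.56 in KO and 25.6 and 39.0 in parental libraries and was called lower (-1.25, limma adjusted p = 0.0111), though not after centring (0.0650), and COL1A1 read 38.2 and 13.0 in KO and 21.5 and 12.2 in parental libraries and was not called. The part of these markers in the values below was not tested.

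Some large mitochondrial subunit mRNAs were lower in the KO fraction and most did not pass the test. Of the 49 members, 20 fell, 0 rose and 29 did not pass the test (limma-trend on log2(value + 1), KO minus parental, Benjamini-Hochberg adjusted p under 0.05), against a background of 25.1% of all 14561 tested genes called lower and 3.77% called higher. At an unadjusted p under 0.05, 2 members were higher, and edgeR on the recovered reads called the same 20 members lower and 0 higher (24.8% and 3.52% of all genes). The fold changes ran from -2.70 for MRPL45 to 0.56 for MRPL46, with a median of -0.44 against -0.29 over all tested genes, and 40 of 49 were negative. The log2(value + 1) scale understates the change of low genes, and the standard errors of the members lay between 0.17 and 0.29. Each other limma fit below, centred or without 1 library, estimated its own spread. Its p-values are not on the same footing as these, so a lost call is not a measure of the gene alone.

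The scale of the libraries set part of this count. When each library was centred on its own median gene, which moved the median of all tested genes to 0.02, 16 of the 20 members stayed called lower and 6 members were called higher: MRPL19, MRPL28, MRPL42, MRPL46, MRPL47 and MRPL52 (background 16.2% lower and 14.6% higher). The 4 members that lost the call were MRPL13, MRPL21, MRPL33 and MRPL51, and the median of the family was -0.13. Of all calls, 86.9% were lower genes on the deposited scale and 52.7% on the centred one. In the authors' deposited table, which set all parental libraries against KO, 16 members were lower in KO at the authors' adjusted p under 0.05 and 1, MRPL42, was higher (24.3% and 4.32% of all genes in that table).

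**Figure D1:**
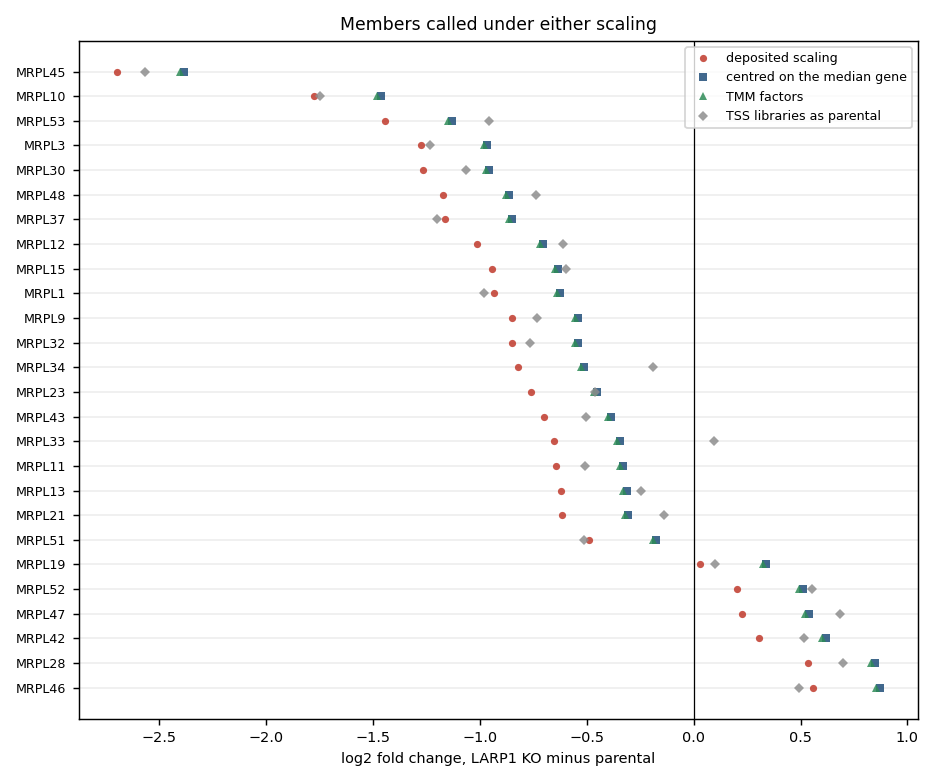
Log2 fold changes (KO minus parental, horizontal axis) of the 20 members called lower on the deposited scale and the 6 called higher after centring, 1 line per gene; circles show the deposited scaling, squares centring on the median gene, triangles TMM factors and diamonds TSS libraries as parental libraries. MRPL45 lies farthest left in all 4 settings, the 6 members at the bottom lie to the right of 0 in all 4, and MRPL33 crosses 0 with TSS libraries.

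Separation of single libraries gave a count that rests on no model. For 34 of 49 members the KO values were both under the lower parental value (50.4% of all tested genes did so) and above both for 3 members, MRPL28, MRPL42 and MRPL46 (12.4%). The other 12 members overlapped. All 20 members called lower were among the 34. With 2 libraries a group, a two-sided exact permutation test of a single gene cannot go below p = 0.333. After centring, 23 members lay below both parental libraries (31.3% of all tested genes) and 11 above both (33.1%).

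The polypeptide exit and its rim held the member with the lowest fold change. MRPL45, which sits at the tunnel exit and ties the mitochondrial ribosome to the inner membrane, read 199 and 155 in KO, 1016 and 1073 in TSS and 1109 and 1179 in parental RNA-seq libraries. Both KO libraries lay far below every parental library, of either kind. The log2 fold change was -2.70 (SE 0.18, limma adjusted p = 1.14e-49), with means of 177 ± 30.8 in KO and 1144 ± 49.04 in parental libraries (SD, n = 2 each). The gene (ENSG00000278845.4) spans chr17:38297023-38323218 on the plus strand of GRCh38 in GENCODE 29. It has 2 named pseudogenes in that annotation, and the pseudogene MRPL45P2, at 22.2 and 21.2 in KO and 63.3 and 48.8 in parental libraries, was also called lower (-1.32, limma adjusted p = 0.000638), so reads assigned between near-identical copies leave both values uncertain. After centring MRPL45 stayed at -2.39 (limma adjusted p = 5.58e-13).

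The other members around the tunnel moved less. MRPL23, a protein at the tunnel exit, read 182 and 167 in KO and 335 and 261 in parental libraries (log2 fold change -0.76, limma adjusted p = 0.00111), and the groups did not overlap. With TSS libraries in place of the parental RNA-seq libraries MRPL23 was not called (-0.46, limma adjusted p = 0.0553). It lost the call without KO replicate 1 (limma adjusted p = 0.0537), without KO replicate 2 (0.114) and without parental replicate 1 (0.198). MRPL24, another protein of the exit region, read 87.8 and 89.4 in KO and 116 and 134 in parental libraries, separate groups with a log2 fold change of -0.49 that missed the threshold (limma adjusted p = 0.115). MRPL22, which lines the tunnel, read 62.6 and 52.6 in KO and 55.2 and 52.4 in parental libraries, with overlapping groups. MRPL47, the counterpart of a bacterial protein at the exit, read 152 and 117 in KO and 105 and 123 in parental libraries, again overlapping, and was not called (0.23, limma adjusted p = 0.495), though after centring it was (0.54, limma adjusted p = 0.0145). Its exons overlap ACTL6A on the other strand, and the counting is not stated to use strand. Of the 6 members listed here for the exit, a list that need not be complete, 2 were called lower, with a median of -0.30. Over all tested genes 25.1% were called lower.

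The L7/L12 stalk recruits and activates the translation factors. Of its 5 members 4 were called lower, with a median of -1.01, against 25.1% of all tested genes. The same number was called lower after centring, against 16.2% of all tested genes. No contrast between roles was tested. MRPL10, the protein that anchors the stalk, read 338 and 290.2 in KO, 1086 and 1023 in TSS and 1067 and 1079 in parental RNA-seq libraries, with no overlap between KO and the rest. Its log2 fold change of -1.78 (SE 0.17, limma adjusted p = 1.76e-23) corresponds to a mean 3.42-fold lower in KO. The gene (ENSG00000159111.12) lies at chr17:47823272-47831534 on the minus strand in GRCh38. MRPL53, a subunit near the stalk with no bacterial counterpart, read 69.5 and 55.3 in KO, 139 and 106 in TSS and 171 and 169 in parental RNA-seq libraries (-1.44, SE 0.24, limma adjusted p = 3.79e-08). It shares exonic sequence with CCDC142 on the same strand, so its reads may be split between both genes.

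The remaining stalk proteins lay nearer to the bulk of the family. MRPL12, the subunit present in several copies that contacts elongation factors, read 119 and 139 in KO and 219 and 311 in parental libraries, without overlap but with parental libraries far apart. Its log2 fold change was -1.01 (limma adjusted p = 1.59e-05), and the call was lost without KO replicate 1 (0.0671), without KO replicate 2 (0.0601) or without parental replicate 2 (limma adjusted p = 0.101). MRPL11, at the base of the stalk, read 553 and 458 in KO and 836 and 740 in parental libraries (-0.64, limma adjusted p = 0.00107). The groups were apart, yet without KO replicate 2, parental replicate 1 or parental replicate 2 the limma adjusted p was 0.0886, 0.171 and 0.0649, and exons of MRPL11 overlap PELI3 on the other strand. MRPL54, placed with the stalk, read 96.3 and 79.2 in KO and 88.8 and 73.1 in parental libraries, with overlap (0.11, limma adjusted p = 0.780). On the opposite flank, MRPL1, the protein of the L1 stalk through which spent tRNAs leave, read 87.1 and 53.9 in KO and 105 and 166 in parental libraries (-0.93, limma adjusted p = 0.00106). Its libraries did not overlap but differed widely within each group, and the call was lost without KO replicate 1 (0.0578), KO replicate 2 (0.329) or parental replicate 2 (limma adjusted p = 0.296).

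**Figure D2:**
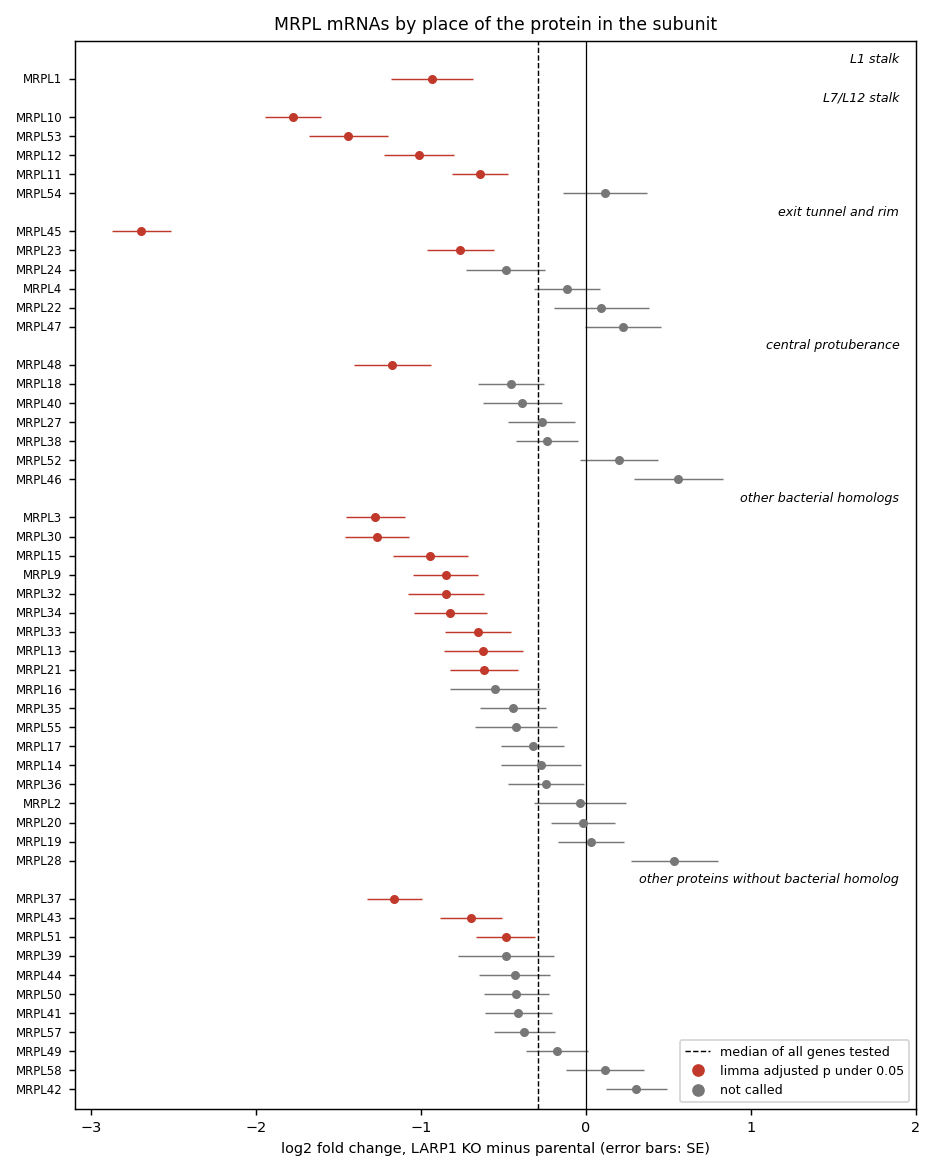
Log2 fold change (KO minus parental) of each of the 49 members, grouped by role, with bars for the SE of the fit; red points have a limma adjusted p under 0.05, grey points do not, and the dashed line marks the median of all tested genes, -0.29. The L7/L12 stalk holds 4 called members of 5 and the central protuberance 1 of 7, against 25.1% of all tested genes called lower.

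Of the 7 members of the central protuberance only MRPL48 was called lower, against 25.1% of all tested genes. The median of the group was -0.27. MRPL48 read 85.6 and 66.2 in KO, 115 and 139 in TSS and 160.2 and 183 in parental RNA-seq libraries (log2 fold change -1.17, limma adjusted p = 7.05e-06). KO libraries were below all parental ones, and without KO replicate 2 the limma adjusted p was 0.0504. MRPL18, which binds the structural RNA of the protuberance in this ribosome, read 222 and 170.02 in KO and 241 and 294 in parental libraries, separate groups whose difference of -0.45 missed the threshold (limma adjusted p = 0.0754). MRPL27, whose bacterial counterpart reaches into the peptidyl transferase centre, read 261 and 171 in KO and 249 and 261 in parental libraries, with overlap. MRPL46, on the contrary, had the highest fold change of the family. It read 103 and 67.6 in KO and 56.5 and 56.1 in parental libraries, apart from each other, at 0.56 (limma adjusted p = 0.105), and was called after centring (0.87, limma adjusted p = 0.00386). MRPL52 read 136 and 99.7 in KO and 108 and 95.1 in parental libraries, with overlap (0.20, limma adjusted p = 0.567).

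Among the 19 other members with a bacterial homolog, 9 were called lower, with a median of -0.55, and 6 of them were called after centring. The shares of all tested genes called lower were 25.1% and, after centring, 16.2%. MRPL3, which reaches from the surface towards the peptidyl transferase centre, read 308 and 236 in KO, 659 and 609 in TSS and 649 and 659 in parental RNA-seq libraries (-1.28, SE 0.18, limma adjusted p = 2.93e-11). MRPL30 read 231 and 154 in KO, 355 and 440.1 in TSS and 429 and 484 in parental RNA-seq libraries (-1.27, limma adjusted p = 7.13e-10). Neither gene had a KO library within the parental range, and MRPL30 shares exonic sequence on its strand with RP11-111H13.1. MRPL15 read 106 and 86.7 in KO and 186 and 185 in parental libraries (-0.94, limma adjusted p = 0.000255), separate groups with a limma adjusted p of 0.0648 without KO replicate 2. MRPL9 read 203 and 193 in KO and 361 and 356 in parental libraries (-0.85, limma adjusted p = 0.000116), with no overlap, and it kept its call when any 1 library was left out. OAZ3 overlaps exons of MRPL9 on the other strand.

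At the other end of the same group stood MRPL28. It read 93.2 and 86.0 in KO, 63.7 and 47.1 in TSS and 64.6 and 58.5 in parental RNA-seq libraries, so KO was above every parental library (0.54, limma adjusted p = 0.115). After centring it was called higher (0.85, limma adjusted p = 0.00317). Its exons overlap TMEM8A on the same strand. MRPL33, a small rRNA-binding protein, read 190.2 and 168 in KO and 300.2 and 264 in parental RNA-seq libraries, apart from each other (-0.65, limma adjusted p = 0.00644). The TSS libraries of the same parental RNA read 165 and 169, within or below the KO values, so the fold change was 0.10 when they took the place of the RNA-seq libraries, and the call was lost without KO replicate 2 (0.120), parental replicate 1 (0.213) or parental replicate 2 (limma adjusted p = 0.0944). BRE overlaps exons of MRPL33 on the same strand.

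Of the 11 other members without a bacterial homolog, MRPL37, MRPL43 and MRPL51 were called lower, against 25.1% of all tested genes. Their group had a median of -0.42. MRPL37 read 491 and 418 in KO, 1016 and 1073 in TSS and 1020.4 and 1009 in parental RNA-seq libraries, which were close to one another and well above KO (log2 fold change -1.16, SE 0.17, limma adjusted p = 9.52e-11). CYB5RL and SSBP3 overlap its exons on the other strand. MRPL51 read 359 and 336 in KO and 468 and 507 in parental libraries, without overlap, at -0.49 (limma adjusted p = 0.0278). Leaving out any 1 of the 4 libraries took the MRPL51 call away (limma adjusted p between 0.0571 and 0.395), as did centring, and NCAPD2 overlaps its exons on the other strand. MRPL42 read 412 and 378 in KO, 294 and 257 in TSS and 293 and 346 in parental RNA-seq libraries. KO was above all parental libraries, with 0.31 (limma adjusted p = 0.214) and, after centring, a call at 0.62 (limma adjusted p = 0.000275). MRPL42 has 4 named pseudogenes, which leaves its value uncertain.

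The group also holds MRPL49 and MRPL58. MRPL49 read 312 and 290.2 in KO and 361 and 321 in parental libraries, separate but not called (-0.17, limma adjusted p = 0.523), and shares exonic sequence on opposite strands with SYVN1 and with FAU, a gene for a cytosolic ribosomal protein. MRPL58, a peptidyl-tRNA hydrolase that frees stalled ribosomes and is also a ribosomal subunit, read 138 and 95.6 in KO and 120 and 93.8 in parental libraries, with overlap (0.12, limma adjusted p = 0.758). Across the family, 5 members shared exonic sequence with another gene on their own strand, 13 on the other strand, and 19 had a named pseudogene.

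**Figure D3:**
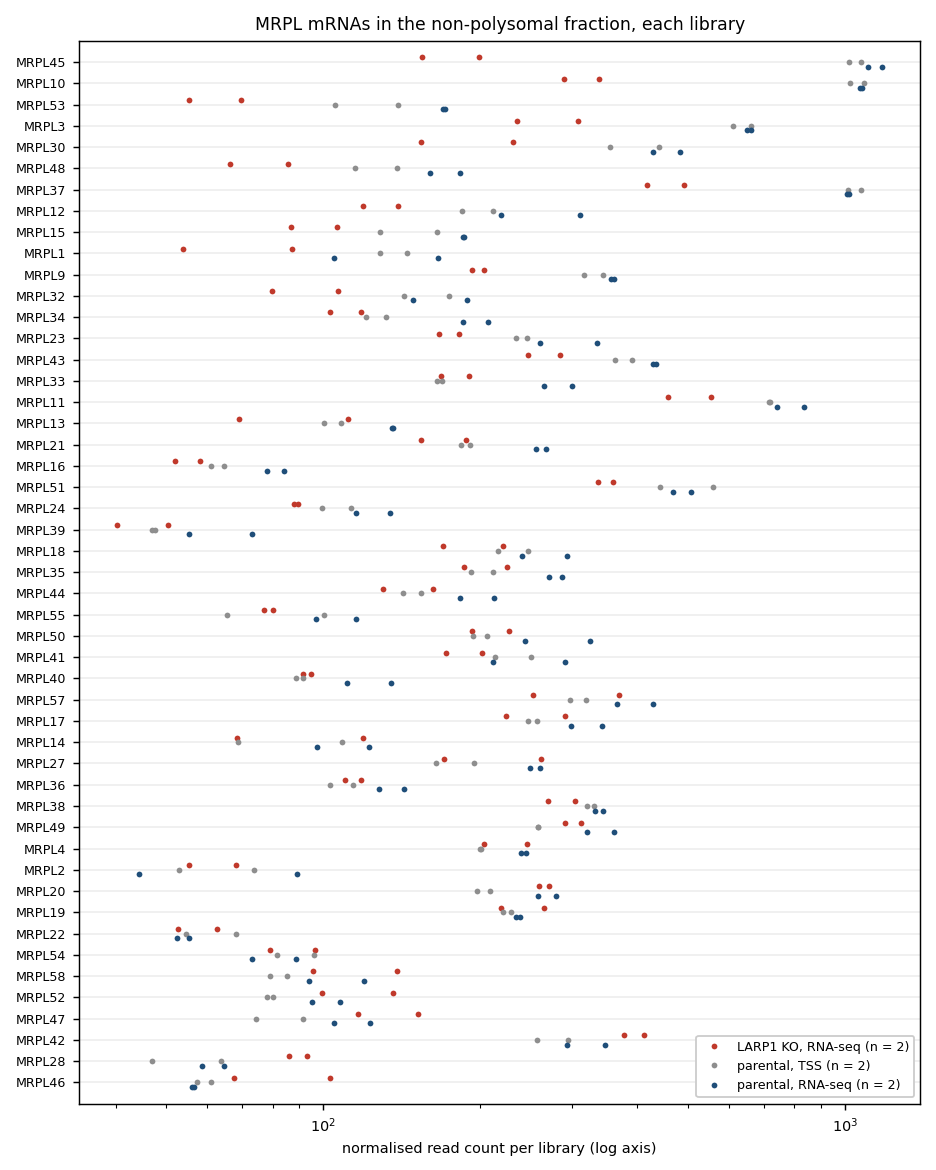
Normalised read counts (log axis) of all 49 members in each library, with 2 KO (red), 2 TSS (grey) and 2 parental RNA-seq (blue) points per gene, ordered by fold change. The KO points of MRPL45, MRPL10, MRPL3, MRPL30 and MRPL37 lie below every parental point, and those of MRPL42, MRPL28 and MRPL46 above.

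The make-up of the family, unlike its level, does not depend on how libraries are scaled. As a share of all reads assigned to the 49 members, MRPL45 held 2.08% and 1.95% in KO, 8.43% and 8.68% in TSS and 7.98% and 8.29% in parental RNA-seq libraries. MRPL10 held 3.54% and 3.64% in KO and 7.68% and 7.59% in parental RNA-seq libraries. MRPL37 held 5.15% and 5.26% in KO and 7.34% and 7.10% in parental RNA-seq libraries, and MRPL3 held 3.23% and 2.96% against 4.67% and 4.64%. In the opposite direction, MRPL42 held 4.32% and 4.75% in KO, 2.44% and 2.08% in TSS and 2.11% and 2.43% in parental RNA-seq libraries. MRPL19 held 2.78% and 2.76% in KO and 1.71% and 1.65% in parental libraries, and MRPL20 held 2.84% and 3.26% against 1.86% and 1.96%. The KO and parental shares of all these genes were apart by more than the gap between libraries of a group. Since shares of 1 sum move against each other, a higher share is not a higher level.

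**Figure D4:**
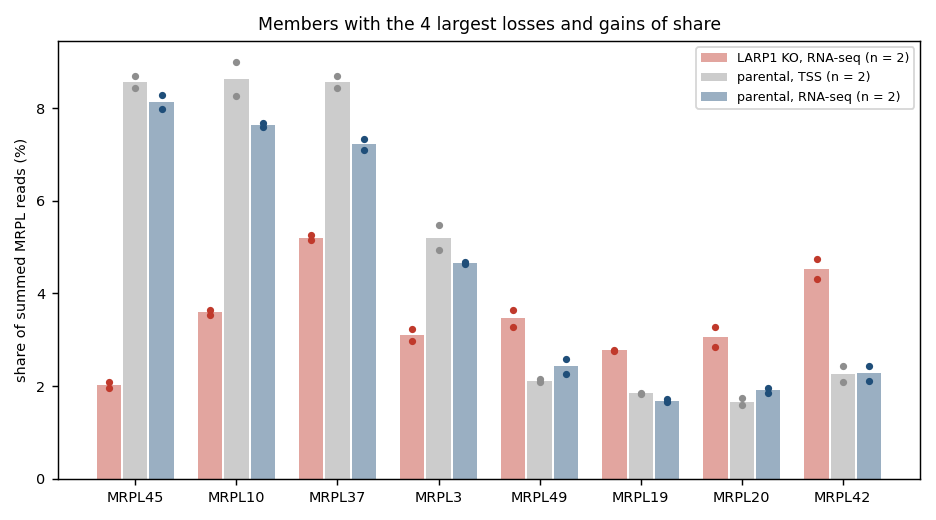
Share of all reads of the 49 members (percent) that went to the 4 members with the largest losses and the 4 with the largest gains of share; bars are means and points single KO, TSS and parental RNA-seq libraries (n = 2 each). MRPL45 and MRPL10 took 2.02% and 3.59% of the reads on average in KO libraries and 8.13% and 7.63% in parental RNA-seq libraries.

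The sum of the 49 members was 9538 and 7947 in KO, 12059 and 12367 in TSS and 13904 and 14216 in parental RNA-seq libraries. Without the 5 members of lowest fold change it was 8394 and 7057 in KO, 8803 and 9116 in TSS and 10478 and 10646 in parental RNA-seq libraries, so the KO sum stayed below. As a share of reads outside the mitochondrially encoded genes, the family instead took 0.196% and 0.186% in KO, 0.148% and 0.139% in TSS and 0.153% and 0.153% in parental RNA-seq libraries. The same denominator holds the 80 genes for cytosolic ribosomal proteins, which took 9.57% and 9.81% in KO, 28.8% and 27.5% in TSS and 31.5% and 31.0% in parental RNA-seq libraries. With those genes taken out as well, the family had 0.217% and 0.206% in KO, 0.208% and 0.192% in TSS and 0.223% and 0.222% in parental RNA-seq libraries, values that lie close together.

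Per kilobase of transcript, levels in KO ran from 18.6 for MRPL22 to 631 for MRPL51, with a median of 138, and in parental RNA-seq libraries from 17.4 for MRPL22 to 885 for MRPL51, with a median of 179. Length was the median over the basic protein-coding transcripts of a gene. MRPL51 ranked first in both groups, at 631 ± 29.6 in KO and 885 ± 49.5 in parental libraries (SD, n = 2 each). MRPL45 ranked 32 of 49 in KO, at 109 ± 18.9, and 2 of 49 in parental libraries, at 702 ± 30.1. In parental libraries its level differed by less than the spread from those of MRPL37 (684 ± 5.34) and MRPL49 (669 ± 55.8), the next in order. MRPL49 ranked 2 in KO at 591 ± 30.9, and MRPL42 ranked 3 in KO at 429 ± 26.3 and 12 in parental libraries at 348 ± 40.5. MRPL10 ranked 17 in KO and 5 in parental libraries. Of the 25 members in the upper part of this order 14 were called lower, with a median log2 fold change of -0.62, and of the other 24 members 6 were, with a median of -0.40. Over all tested genes, of any level, 25.1% were called lower, with a median of -0.29. A share for genes of like level was not computed. The lowest standard error of a fold change belonged to MRPL37 (0.17) and the highest to MRPL39 (0.29), which ranked 3 and 48 in parental libraries. The part of the standard error in these counts of calls was not tested.

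The TSS libraries, made by decapping the parental RNA and ligating an oligonucleotide to the exposed ends, gave a lower median for the family than the RNA-seq libraries of the same RNA. The median difference on the log2 scale was -0.31 for members and -0.12 for all tested genes, with a range from -0.75 for MRPL33 to 0.19 for MRPL22. Both TSS libraries lay below both RNA-seq libraries for 32 of 49 members (33.5% of all tested genes) and above for 1 (7.77%). With TSS libraries in place of parental RNA-seq libraries, 15 of the 20 members stayed called lower and MRPL28, MRPL42 and MRPL47 were called higher (background 21.4% lower and 6.33% higher). The call was lost by MRPL13, MRPL21, MRPL23, MRPL33 and MRPL34. Library type and preparation differ here together, and their part in the differences was not tested.

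The share of TOP-like starts in the family was near that of all genes. A C followed by at least 4 pyrimidines (any mix of C and T, sense strand only) stood at the annotated first base of 3 of the 42 members with a promoter entry (7.14%), against 5.14% of all 27305 genes in the promoter table and 7.44% of the 9657 tested protein-coding genes with an entry. In the cytosolic large subunit 28 of 38 genes had it (73.7%). Allowing the run to begin within 10 bases of the start, 15 members had it (35.7%), against 38.4% of all genes in the table, 42.2% of the tested protein-coding genes and 35 of 38 cytosolic genes (92.1%). The 3 members with the run at the first base were MRPL45 (-2.70), MRPL53 (-1.44) and MRPL44, which read 163 and 130.4 in KO and 183 and 212 in parental libraries and was not called (-0.43, limma adjusted p = 0.116). Of the 15 members with a run near the start 7 were called lower, with a median of -0.55, and of the 27 without 8 were, with a median of -0.37. The share of all tested genes called lower was 25.1%, with a median of -0.29. No contrast between members with and without a run was tested. Displaced runs not shown above include 25 bases in MRPL14 (-0.27, not called), 13 in MRPL43 (-0.70, called lower) and 5 in MRPL28 (0.54, not called). An annotated start need not be the start used in these cells, and a match is a description of letters only. MRPL2, MRPL10, MRPL13, MRPL15, MRPL21, MRPL23 and MRPL35 had no entry.

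The nearest counterparts are the proteins of the small mitochondrial subunit and of the cytosolic large subunit. Of 29 genes with an MRPS symbol, MRPS30 and MRPS18A encode proteins of the large subunit and were set aside. Of the other 27, 12 were called lower and 0 higher by limma and by edgeR (0 higher at an unadjusted p under 0.05), with a median of -0.44, and after centring 8 were called lower and 2 higher. Over all tested genes limma called 25.1% lower and 3.77% higher, or 16.2% and 14.6% after centring. Of 47 genes for cytosolic large-subunit proteins, without the readthrough locus RPL17-C18orf32, 47 were called lower, with a median of -2.97 and fold changes from -4.36 to -1.50. Among the members, MRPL45 and MRPL10 had fold changes below -1.50. No test between the families was made.

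**Figure D5:**
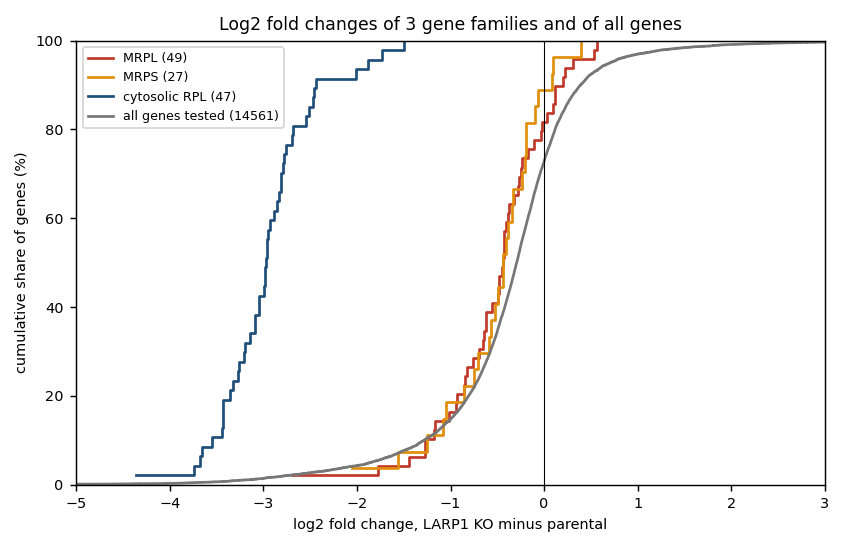
Cumulative share of genes (percent) by log2 fold change (KO minus parental) for the MRPL members, the MRPS genes, the cytosolic large-subunit genes and all tested genes. The medians are -0.44, -0.44, -2.97 and -0.29, and the curve of the cytosolic genes reaches 100% at -1.50.

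Partners of the large subunit were followed through lists of the same pathway. The mitochondrial ribosomal RNA of the large subunit, MT-RNR2, was not called by limma (-0.69, limma adjusted p = 0.1005) but was called lower by edgeR (-0.70, edgeR adjusted p = 9.27e-25). That of the small subunit, MT-RNR1, was called lower by both (-1.33, limma adjusted p = 1.54e-07) but by limma not after centring (limma adjusted p = 0.0587). Ribosomal RNA had been depleted before sequencing. The summed values of MT-RNR1 and MT-RNR2 were 11604508 and 9999028 in KO and 15997291 and 20821923 in parental RNA-seq libraries. All tested genes summed to 16835963 and 14603777 in KO and 25628480 and 30864583 in parental RNA-seq libraries. Of 3 further large-subunit proteins that carry other names, MRPS30 was called lower (-0.43, limma adjusted p = 0.0477), though neither after centring (0.406) nor by edgeR (edgeR adjusted p = 0.0605), while GADD45GIP1 (-0.54) and MRPS18A (-0.13) were not. Of 18 assembly factors of the large subunit, 2 were called lower and 0 higher by limma (edgeR 0 higher; 0 higher at an unadjusted p under 0.05), with a median of -0.16. After centring 2 were called lower and 5 higher. The background was 25.1% lower and 3.77% higher on the deposited scale and 16.2% and 14.6% after centring. RPUSD4, a pseudouridine synthase acting on the large ribosomal RNA, read 167 and 126 in KO and 446 and 416 in parental libraries (-1.57, limma adjusted p = 6.08e-14), and NSUN4, which joins assembly of both subunits, read 152 and 151 in KO and 249 and 245 in parental libraries (-0.70, limma adjusted p = 0.00428).

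Of 14 mitochondrial translation factors, 7 were called lower and 0 higher by limma, before and after centring (edgeR 0 higher; 0 higher at an unadjusted p under 0.05), with a median of -0.61 on the deposited scale. The limma background was 25.1% lower and 3.77% higher, or 16.2% and 14.6% after centring. MRRF, the ribosome recycling factor, read 285 and 274 in KO and 1304 and 1308 in parental libraries (log2 fold change -2.22, limma adjusted p = 6.53e-37). OXA1L, the membrane insertase that receives chains from the exit where MRPL45 sits, read 494 and 405 in KO and 2033 and 2078 in parental libraries (-2.20, limma adjusted p = 1.69e-40). For both genes the KO libraries were below every parental library. LRPPRC, which stabilises mitochondrial mRNAs, and TUFM, the elongation factor that brings tRNAs, changed by -1.30 and -1.06, and the initiation factor MTIF2 by -1.29. MTIF3, another initiation factor, and MTRF1L, a release factor at -0.76, were the others called lower.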

How the data were processed

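RNA from non-polysomal gradient fractions, spiked with ERCC RNAs and depleted of ribosomal RNA per the labels' protocols, was sequenced. The submitters' processing notes name the build GRCh38 and the tools DESeq2, RSEM, SAMtools and STAR 2.6; the sources used here give neither the annotation release nor the use of strand. The deposited table holds a signal per gene and library, gene reads divided by 1 size factor per library by the authors, who also deposited the mean signal, a linear fold (ratio) and log2 fold change of parental over knockout with its SE, a test score, p-values, and adjusted p-values also as −log10. Whole reads were recovered from 100% of values within a tolerance of 0.001 reads. Reads are not counted by molecule.

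limma-trend (limma 3.58.1, R 4.3.3) compared 2 KO with 2 parental RNA-seq libraries on log2(value + 1), two-sided, for the 14561 genes that reached a value of 1 in 2 or more of these 4 libraries, Benjamini-Hochberg adjusted over all of them. In the main fit limma estimated infinite prior degrees of freedom. The spread used there for a gene is the one fitted at its mean level, not its own. Each alternative limma fit estimated this anew, so p-values and lost calls are not on the same footing between fits. For MRPL45 the SE was 0.18 (limma adjusted p = 1.14e-49) in the main fit and 0.10 (limma adjusted p = 5.58e-13) after centring. edgeR 4.0.16 (quasi-likelihood) on the recovered reads was an alternative; the code was tested on simulated data. Coordinates, overlaps and lengths come from GENCODE 29, where 49 of 49 members matched. The members and lists were chosen with earlier results of these data known. Named members were those with the 10 smallest p, the 5 highest fold changes, the 3 highest levels per kilobase and 12 picked by role; others named in a sentence were chosen after their values were seen, and MRPS30, MRPS18A and RPL17-C18orf32 were set aside from the MRPS and RPL lists at the same stage. Alternatives covered scaling (centring, TMM), low-value filters, pseudocounts of 0.1 and 5, the variance trend, a fold filter, the replicate number, TSS libraries as parental libraries and leaving out each library.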

Additional observations from a re-analysis of the deposited data

How the results depend on the processing

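The number of members called lower was 20 and stayed within 1.5 times of that under each alternative run except limma without its trend (9), a fold filter of 1 log2 unit (8) and leaving out 1 library (7 to 15, or 9 to 17 on centred values). On the deposited scaling 15 calls remained without KO replicate 1, 7 without KO replicate 2, 11 without parental replicate 1 and 12 without parental replicate 2, and no other member was called. MRPL3, MRPL9, MRPL10, MRPL30, MRPL37, MRPL45 and MRPL53 kept the call in all 4, and these without MRPL9 in all 22 alternative fits. The number called higher, 0, became 6 with centring, 5 with TMM factors, 6 with edgeR and TMM, 3 with TSS libraries as parental, 2 with RNA-seq and TSS libraries averaged, 10 with TSS libraries and centring, and, without 1 library, 0 on the deposited scale and 2 to 8 on centred values. The median of -0.44 became -0.13 (centring), -0.15 (TMM), -0.15 (edgeR and TMM), -0.088 (TSS), -0.28 (both averaged), 0.090 (TSS and centring) and, without 1 library, -0.59 to -0.31, or -0.19 to -0.12 centred, where it was -0.16 without KO replicate 1. The 4198 calls over all genes became 2244 without the trend, 2077 with the fold filter and 1367 to 2769 without 1 library, or on centred values 2735 without KO replicate 1, 2673 without KO replicate 2 and up to 5275. MRPL33 turned to 0.10 with TSS libraries and 0.27 with TSS libraries and centring, where MRPL27 turned to 0.42 and MRPL49 to 0.40. The causes were not tested. Over all tested genes, 3.77% were called higher in the main fit, 14.6% with centring and 6.33% with TSS libraries as parental. The shares called lower were 25.1%, 16.2% and 21.4% in the same order. Apart from edgeR on the recovered reads, given above, no such share is given here for the other fits. Their member counts are therefore not read as a result about the family. TSS libraries with centring were added after the data were seen. Single named members gave 598 values under alternatives, of which 62 lost and 45 gained a call without a change of sign. A further 4, those of MRPL33, MRPL27 and MRPL49 given above, changed sign. Among these MRPL33 lost its call, and MRPL27 and MRPL49 gained one. Depths of 33 to 1210 reads per member limit small differences.

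Same-numbered libraries did not deviate together (correlation -0.02), so the numbers were not taken as pairs. With the replicate number as a block 17 members were lower and 0 higher, 3159 genes were called, the family's median was -0.44 and LARP1 was -1.13. The block on centred values gave 5 members higher and a median of -0.13.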
